A study of Mus musculus with 20 samples.

Results

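The nuclear factor I genes *Nfia*, *Nfib*, *Nfic* and *Nfix* were followed through the 5fC peaks of mouse embryo tissues. They were taken by name, 4 of the 22089 protein-coding genes tested, and each was measured over its gene body plus 5 kb on each side in NCBIM37 (mm9) coordinates. The series holds 20 libraries of DNA pulled down for 5-formylcytosine (5fC) from 12 mouse embryos at E11.5, either WT or *Tdg* null. *Tdg* null embryos lack the catalytic domain of TDG on both alleles, where the gene carries a neomycin resistance marker, and they came from intercrosses of heterozygotes, so that WT and *Tdg* null embryos were litter mates. Hindbrain was taken from 1 WT and 1 *Tdg* null embryo in each of litters A, O, Q and Z. Heart, liver and carcass, the rest of the body, were taken from 1 WT and 1 *Tdg* null embryo in each of the litters labelled pair a and pair b. Those 3 tissues of a litter therefore share their embryos. No embryo gave both hindbrain and another tissue, so that between hindbrain and the other tissues, tissue and litter cannot be told apart. The deletion is present in every cell, and the tissues were dissected whole, so that a peak cannot be assigned to a cell type. The libraries hold DNA and no RNA, so the labelled tissues could not be set against marker genes.

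Nuclear factor I (NFI) proteins are DNA-binding factors that recognise a palindromic motif as dimers. NFIA and NFIB are known for the onset of gliogenesis in the embryonic spinal cord and brain, NFIX for the fetal programme of skeletal muscle and for neural progenitors, and NFIC for tooth root formation. 5fC arises when TET enzymes oxidise methylated cytosine, and TDG excises it, so that it is expected to persist where TDG is lost.

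The values are the positions of peaks, called by the authors in each pull-down on its own. They carry no heights and no read numbers, and so no sequencing depth. The 10 WT libraries held 1563 to 42013 peaks covering 0.0349% to 0.939% of the ungapped genome, and 9 *Tdg* null libraries held 101344 to 254319 peaks covering 2.68% to 8.09%. The *Tdg* null liver of pair b held 228 peaks. It was set aside, as the study did, and it had 0 peaks at all 4 genes. Whether the number of peaks follows sequencing depth was not tested.

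*Nfia* (ENSMUSG00000028565.11) lies at chr4:97439425-97868605 on the plus strand, and its window measured 439 kb. *Nfib* (ENSMUSG00000008575.10) lies at chr4:81936077-82351654 on the minus strand, with a window of 426 kb. *Nfic* (ENSMUSG00000055053.10) is the short member, at chr10:80858931-80893750 on the minus strand, with a window of 44.8 kb. *Nfix* (ENSMUSG00000001911.9) lies at chr8:87223775-87324243 on the minus strand, with a window of 110 kb. The span of *Nfix* also holds *Lyl1*, a transcription factor gene of blood and endothelial cells, and *G430095P16Rik*, both on the plus strand. The span of *Nfic* holds the processed transcript *Gm16104*, and its flanks reach into *Dohh* and *2210404O07Rik*, as those of *Nfix* do into *Trmt1*. The start of *Nfia* is overlapped by the protein-coding gene *E130114P18Rik* on the minus strand, and its span holds the pseudogene *Gm12691*. The span of *Nfib* holds *Gm11266*, *Gm11267*, *Gm11269*, the pseudogene *Gm11268* and the ribosomal RNA gene *n-R5s188*. Peaks carry no strand, so a peak in such an overlap belongs to both genes.

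The sequences below are the stretches of each gene that lay under peaks of the most libraries. They show what DNA the pull-down recovered repeatedly, and each is the plus strand of NCBIM37, 5′ to 3′, with every CpG in capitals. The *Nfia* stretch is at chr4:97535601-97535900 in an intron, 96.3 kb from the gene start for the region that holds it, and it lay under peaks of 8 of 9 *Tdg* null and 9 of 10 WT libraries at its best covered bases. The *Nfib* stretch is at chr4:82219001-82219300 in an intron, within a region 133 kb from the start that 8 *Tdg* null and 6 WT libraries covered. The *Nfic* stretch is at chr10:80874101-80874400 in an intron and reaches into *Gm16104*, within a region under peaks of 8 *Tdg* null and 6 WT libraries. The *Nfix* stretch is at chr8:87245401-87245700 over part of a coding exon, within a region under peaks of 7 *Tdg* null libraries and 1 WT library.
Nfia intron: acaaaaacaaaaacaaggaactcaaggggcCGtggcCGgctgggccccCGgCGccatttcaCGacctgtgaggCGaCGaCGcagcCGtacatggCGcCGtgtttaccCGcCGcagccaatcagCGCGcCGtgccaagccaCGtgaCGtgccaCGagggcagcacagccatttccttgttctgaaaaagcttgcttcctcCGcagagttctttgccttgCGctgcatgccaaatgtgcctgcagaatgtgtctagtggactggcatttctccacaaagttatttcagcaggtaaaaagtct
Nfib intron: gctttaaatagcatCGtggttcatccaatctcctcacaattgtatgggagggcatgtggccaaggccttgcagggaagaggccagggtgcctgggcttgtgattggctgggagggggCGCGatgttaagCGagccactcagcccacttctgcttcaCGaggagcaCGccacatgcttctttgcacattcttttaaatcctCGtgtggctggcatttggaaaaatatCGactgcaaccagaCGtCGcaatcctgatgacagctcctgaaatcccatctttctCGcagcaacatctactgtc
Nfic intron: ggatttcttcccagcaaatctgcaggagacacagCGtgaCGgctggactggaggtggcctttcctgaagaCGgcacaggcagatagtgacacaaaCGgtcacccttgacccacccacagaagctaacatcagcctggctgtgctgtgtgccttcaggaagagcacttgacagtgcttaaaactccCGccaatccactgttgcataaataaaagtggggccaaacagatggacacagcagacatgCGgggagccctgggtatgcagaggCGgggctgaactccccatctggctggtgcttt
Nfix exon and flanking intron: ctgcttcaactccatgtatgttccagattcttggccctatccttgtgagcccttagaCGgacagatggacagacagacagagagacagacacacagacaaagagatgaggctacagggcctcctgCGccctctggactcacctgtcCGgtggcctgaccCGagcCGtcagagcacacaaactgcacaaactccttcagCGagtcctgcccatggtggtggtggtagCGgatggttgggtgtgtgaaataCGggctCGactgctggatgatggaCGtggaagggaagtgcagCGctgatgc
These stretches of 300 bases held 21, 11, 7 and 11 CpG dinucleotides, in the same order. All tiles of this length in the 4 windows held a mean of 2.63 CpG in *Nfia*, 3.07 in *Nfib*, 7.26 in *Nfic* and 5.82 in *Nfix*. The *Nfia* stretch lay wholly in a CpG island (CGI), and the *Nfib*, *Nfic* and *Nfix* stretches for 77.7%, 33.7% and 66.0% of their bases, with CGIs defined as at least 200 bp of at least 50% GC and an observed over expected CpG ratio above 0.6. The *Nfic* stretch therefore had about as many CpG as the gene's average tile, whereas the *Nfia* stretch was far richer in them than its surroundings.

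The NFI motif was searched on both strands in 2 forms, the single motif TTGGCA and the full palindrome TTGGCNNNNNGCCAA, which overlap where the palindrome reads TTGGCA on either strand. The full palindrome occurred 4 times in the 4 windows, 3 times in *Nfia* and 1 time in *Nfib*. The copy at chr4:97535950-97535964 in *Nfia*, TTGGCcagagGCCAA with its fixed letters in capitals, lay just past the printed *Nfia* stretch, under peaks of 8 *Tdg* null and 8 WT libraries. The other 3 copies lay under peaks of 0, 1 and 0 *Tdg* null libraries and of no WT library. Over all 3398 tiles of 300 bases, 4 (0.118%) held the full palindrome and 513 (15.1%) held TTGGCA. The printed *Nfia* stretch held TTGGCA 2 times, and the other 3 printed stretches did not hold these letters. These matches are a description of letters only.

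In hindbrain, peaks covered more of all 4 NFI genes in *Tdg* null than in WT embryos. *Nfia* was covered for 8.15%, 6.13%, 7.97% and 9.20% of its window in the *Tdg* null hindbrains of litters A, O, Q and Z. In the WT hindbrains of the same litters it was covered for 0.114%, 0.638%, 1.80% and 0.250%. The lowest *Tdg* null value lay above the highest WT value, and the WT hindbrain of litter Q, which had the most peaks of the 4 genome-wide, was the highest WT value. *Nfib* was covered for 7.73%, 6.34%, 8.27% and 9.02% in *Tdg* null hindbrain and for 0.188%, 0.423%, 1.74% and 0% in WT hindbrain. The groups did not overlap, and litter Z was the highest of the *Tdg* null and the lowest of the WT values. *Nfic* was covered for 5.80%, 7.36%, 9.37% and 7.81% in *Tdg* null hindbrain. In WT hindbrain it had 1 peak in litter O (1.78%) and 1 in litter Q (1.56%), and none in litters A and Z. *Nfix* was covered for 4.25%, 0.815%, 4.44% and 1.27% in *Tdg* null hindbrain and had 0 peaks in all 4 WT hindbrains. *Nfix* was thus the least covered member in each *Tdg* null hindbrain, and its values in litters O and Z were well under those in A and Q.

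The mean rise in covered share was 7.16 percentage points for *Nfia*, 7.25 for *Nfib*, 6.75 for *Nfic* and 2.69 for *Nfix*. The two-sided exact permutation test of 4 against 4 gave p = 0.0286 for each, the smallest it allows, and adjusted p = 0.0519 after Benjamini-Hochberg over all genes. All 4 members were among the genes higher in *Tdg* null hindbrain at an unadjusted p under 0.05, but so were 55.0% of the 22089 genes tested, and 0 genes passed after adjustment. The rise of the members is therefore read against the median rise of all genes, 2.47 percentage points. *Nfix* was close to it and the other members were above it. With litter mates paired, the exact sign-flip test gave p = 0.125, the smallest for 4 pairs, so the unadjusted call does not stand in that test. For *Nfix* the call also ended when any 1 WT hindbrain was left out (exact permutation p = 0.0857), although the *Tdg* null values stayed above the WT values at 0. As a ratio of means, *Tdg* null over WT hindbrain was 11.2 for *Nfia*, 13.4 for *Nfib* and 9.07 for *Nfic*, beside 18.7 for the covered share of the genome. These ratios rest on single WT libraries. Without the WT hindbrain of litter Q they were 23.5, 38.5 and 12.8, beside 40.4 for the genome, and without that of litter O the *Nfic* ratio was 14.6, an alternative chosen after seeing the data. No ratio is given for *Nfix*, since WT hindbrain was at 0.

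**Figure D1:**
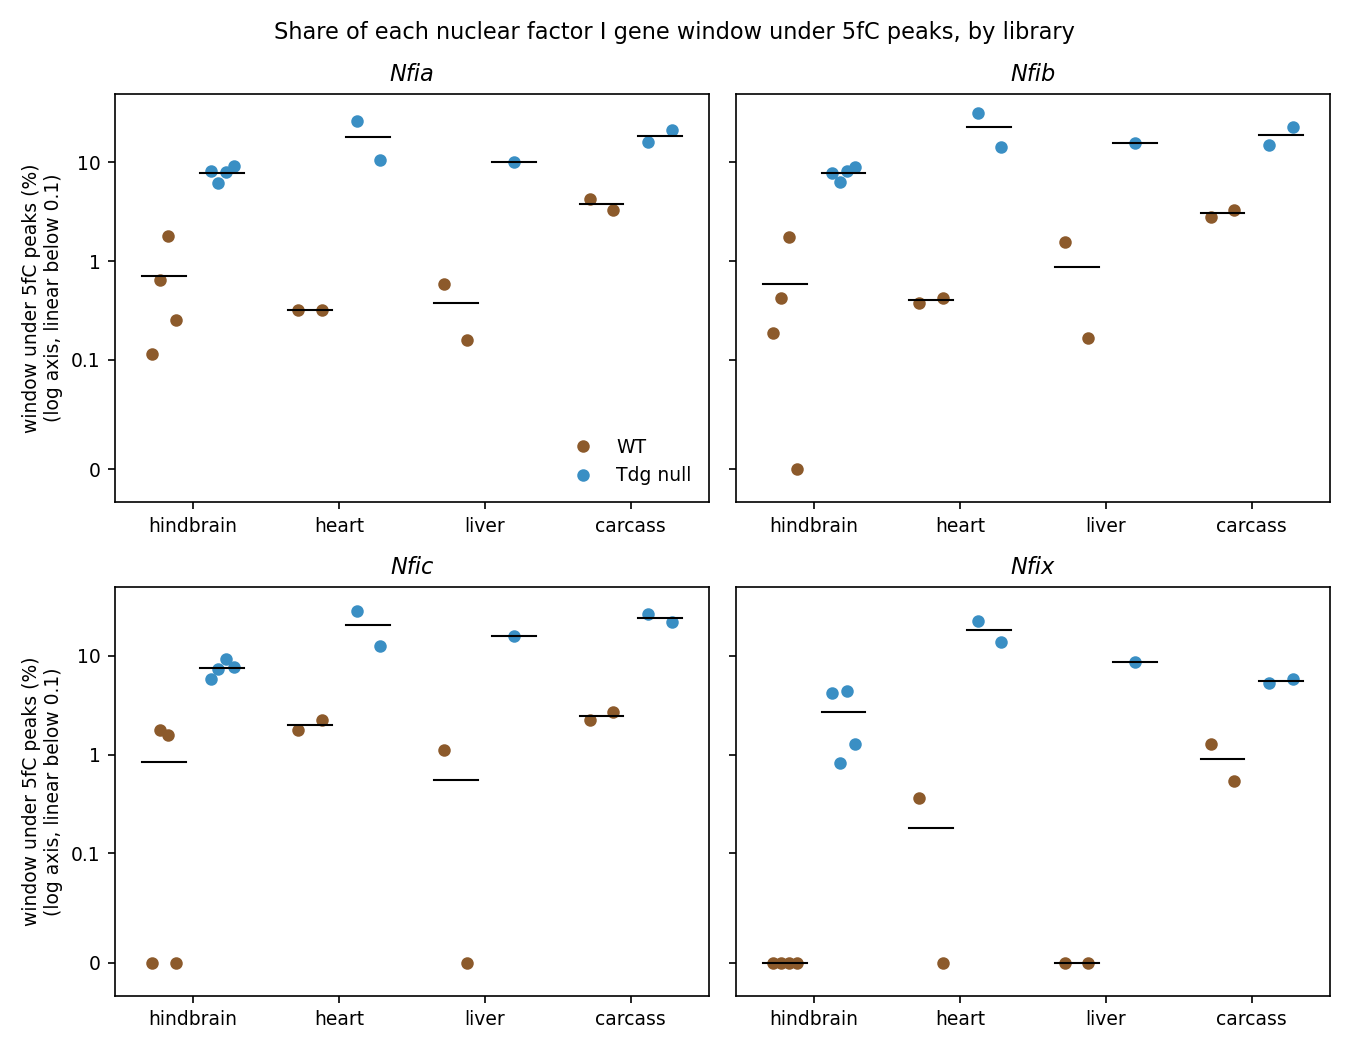
Percent of each gene window (gene body plus 5 kb on each side) under 5fC peaks on a log axis that is linear below 0.1, by tissue. Each point is 1 library (brown WT, blue *Tdg* null), black bars are means of 1 to 4 libraries, and the *Tdg* null liver of pair b is left out; within each tissue all *Tdg* null points sit above the WT points.

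The other tissues held the same order of genotypes, with higher mean levels than hindbrain in *Tdg* null embryos but not in each WT tissue. In carcass, *Nfia* was covered for 16.1% and 21.4% in the *Tdg* null embryos of pair a and pair b and for 4.30% and 3.32% in the WT embryos. In heart it was covered for 26.0% and 10.5% in *Tdg* null and for 0.319% in both WT embryos. In liver the single *Tdg* null value was 10.1%, against 0.592% and 0.159% in WT. WT carcass thus held the highest WT values of *Nfia*, and it was also the WT tissue with the most peaks genome-wide. *Nfib* was covered for 15.2% and 22.8% in *Tdg* null carcass, 31.8% and 14.3% in the hearts and 15.7% in the liver of *Tdg* null embryos. Its WT values were 2.80% and 3.29% in carcass, 0.376% and 0.423% in heart and 1.57% and 0.164% in liver. *Nfic* was covered for 26.6% and 22.1% in *Tdg* null carcass, 28.6% and 12.7% in the hearts and 16.1% in the liver of *Tdg* null embryos. The WT libraries of these tissues held at most 1 peak each at *Nfic*, and covered between 0% and 2.68% of it. *Nfix* was covered for 5.34% and 5.88% in *Tdg* null carcass, 22.7% and 13.9% in the hearts and 8.69% in the liver of *Tdg* null embryos. In WT embryos it had 2 peaks and 1 peak in carcass, 1 peak in the heart of pair a, and none in the other heart or in either liver. In the *Tdg* null heart of pair b the *Nfix* share exceeded that of *Nfia*, which it did in no other *Tdg* null library.

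When heart, liver and carcass of a litter were averaged first, for pair b without liver in either genotype, the *Tdg* null minus WT difference was positive for each member in 6 of 6 litters. *Nfia* differed by 8.04, 5.49, 6.17, 8.95, 15.7 and 14.1 percentage points in litters A, O, Q, Z, pair a and pair b. *Nfix* differed by 4.25, 0.815, 4.44, 1.27, 11.7 and 9.60 points in the same litters. Both litters that gave heart, liver and carcass thus had the largest differences. The means were 9.74 points for *Nfia*, 10.8 for *Nfib*, 10.7 for *Nfic* and 5.35 for *Nfix*, each with an exact sign-flip p of 0.03125, the smallest for 6 litters, and an adjusted p of 0.0571. The same unadjusted call was made for 54.7% of all genes, whose median difference was 3.04 points.

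By peak number, the 9 *Tdg* null libraries held 40 to 138 peaks in *Nfia* (604 in all), 36 to 143 in *Nfib* (613), 2 to 11 in *Nfic* (49) and 1 to 23 in *Nfix* (67). The 10 WT libraries held 78 peaks in *Nfia*, 66 in *Nfib*, 7 in *Nfic* and 4 in *Nfix*. *Nfia* had a peak in 10 of 10 WT libraries, *Nfib* in 9, *Nfic* in 7 and *Nfix* in 3. Peaks were somewhat longer in *Tdg* null libraries, with a median of 700 against 600 bp in *Nfia* and *Nfib*. Against all protein-coding windows, the mean covered share over the *Tdg* null libraries ranked above that of 89.8% of genes for *Nfia*, 92.6% for *Nfib*, 93.4% for *Nfic* and 73.4% for *Nfix*. Over the WT libraries the ranks were 95.3%, 94.4%, 96.5% and 65.0%. Over these pooled libraries *Nfix* ranked lowest of the members in both genotypes and *Nfic* highest, but the order differed by tissue. *Nfic* had the highest mean share in *Tdg* null carcass and liver and in WT hindbrain and heart. It did not in *Tdg* null hindbrain and heart or in WT carcass and liver. *Nfix* had the lowest mean in each tissue of both genotypes except *Tdg* null heart, where it averaged 18.29% and *Nfia* 18.26%.

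To set aside how many peaks a library has, the bases covered in each window were divided by those expected from that library's share of the genome, as log2 of the ratio after adding 100 bases to each. On this scale a window covered like the genome is at 0. The added bases pull empty windows of sparse libraries toward 0. In *Tdg* null hindbrain *Nfia* stood at 1.18, 1.19, 1.17 and 1.32 and *Nfib* at 1.10, 1.24, 1.23 and 1.29 in the same order of litters (A, O, Q, Z). *Nfic* stood at 0.66, 1.39, 1.36 and 1.04 and *Nfix* at 0.24, -1.61, 0.33 and -1.47. *Nfia* and *Nfib* were thus steady above the genome in all 4 hindbrains, whereas *Nfix* was above it in litters A and Q and below it in O and Z. In WT hindbrain *Nfia* stood at 1.16, 1.73, 1.89 and 2.24, so that WT peaks, though few, also fell in *Nfia* more than in the genome at large. The *Tdg* null minus WT hindbrain difference was -0.54 for *Nfia* (exact permutation p = 0.143), 0.35 for *Nfib* (p = 0.914) and 0.30 for *Nfic* (p = 0.743). No difference is read for *Nfix*, since the log2 values of all 4 WT hindbrains, with no peak, were set by the added bases and the size of the library. None of the other 3 members passed an unadjusted p under 0.05, while 48.6% of all genes did, 4662 higher and 6065 lower in *Tdg* null, around a median of -0.15. That share includes genes with no WT hindbrain peak, whose WT log2 values the added bases set as they do for *Nfix*. Adjusted p were 0.215 to 0.947. The sign of each changed with a setting. It turned for *Nfia* with 1000 bases added or with peaks of at least 600 bp, for *Nfib* with peaks of at least 600 bp or without the WT hindbrain of litter Z, and for *Nfic* with peak midpoints or without the WT hindbrain of litter A or Z, which held no *Nfic* peak. *Nfia* passed at -0.76 with peak midpoints, -0.75 with expectation from protein-coding windows and -0.74 without the WT hindbrain of litter A (exact permutation p = 0.0286 each).

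Averaged per *Tdg* null embryo, *Nfix* had the lowest mean of the members. The mean over 6 embryos was 1.34 ± 0.21 (SD) for *Nfia*, 1.43 ± 0.34 for *Nfib*, 1.37 ± 0.50 for *Nfic* and -0.13 ± 1.13 for *Nfix*, which corresponds to 2.53, 2.69, 2.58 and 0.916 times the genome. *Nfia* exceeded *Nfix* by 1.46, *Nfib* exceeded it by 1.56 and *Nfic* by 1.49 on the log2 scale, each in 6 of 6 embryos. The exact sign-flip permutation p was 0.03125 for each, the smallest for 6 embryos, and 0.0625 after Benjamini-Hochberg over the 6 pairs. The other 3 pairs differed by -0.09 (*Nfia* minus *Nfib*, range -0.28 to 0.08), -0.03 (*Nfia* minus *Nfic*, -0.46 to 0.52) and 0.06 (*Nfib* minus *Nfic*, -0.18 to 0.44), with exact permutation p of 0.281, 0.875 and 0.625. *Nfia*, *Nfib* and *Nfic* are thus neighbours in order that did not differ beyond their spread on this measure, and *Nfix* stood below them. Counted by peak midpoints in place of bases, *Nfia* and *Nfib* exceeded *Nfic* by 0.60 and 0.59 (exact permutation p = 0.03125 each).

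**Figure D2:**
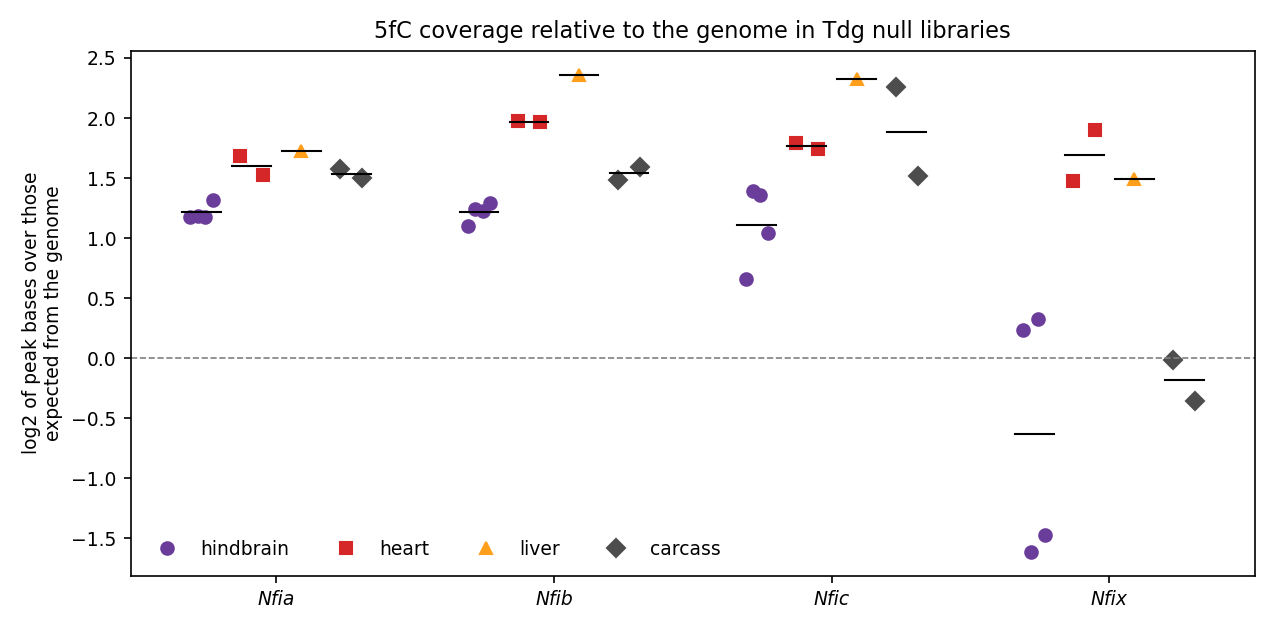
Log2 of peak bases in each gene window over those expected from the library's share of the genome, in 9 *Tdg* null libraries. Each symbol is 1 library (circles hindbrain, squares heart, triangles liver, diamonds carcass), black bars are means, and the dashed line at 0 marks coverage equal to the genome; both heart points lie above all 4 hindbrain points for each gene.

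Between tissues, hindbrain embryos were set against the embryos that gave heart, liver and carcass, within each genotype. Hindbrain minus the others was -0.06 for *Nfia* (stratified exact permutation p = 0.791), -0.76 for *Nfib* (p = 0.196), -0.72 for *Nfic* (p = 0.138) and -1.15 for *Nfix* (p = 0.0578), on the log2 scale. Adjusted p were 0.902, 0.416, 0.333 and 0.197. None of the members passed an unadjusted p under 0.05, which 27.4% of all genes did, 5254 of them higher and 800 lower in hindbrain. The median of all genes was 0.25, so the negative values of *Nfia*, *Nfib* and *Nfic* stood on the other side of it. The *Nfib*, *Nfic* and *Nfix* values rest in part on WT libraries with no peak, which were 1 hindbrain for *Nfib*, 2 hindbrains and 1 liver for *Nfic*, and 4 hindbrains, 2 livers and 1 heart for *Nfix*. Without the WT embryo of litter Z, *Nfib* moved to -0.39 (exact permutation p = 0.04), and without that of litter O *Nfic* moved to -0.98 (p = 0.0333). Over both genotypes no difference is read for *Nfix*, since the added bases and the size of the library set the log2 values of all 4 WT hindbrains. That holds also for its -1.28 or -1.29 without the WT embryo of litter A or Z (exact permutation p = 0.04 each). For *Nfia* the value averages a WT hindbrain mean of 1.76 above the 1.50 of the other WT embryos and a *Tdg* null hindbrain mean of 1.21 below the 1.59 of the other *Tdg* null embryos. In *Tdg* null embryos alone the differences were -0.37, -0.65, -0.77 and -1.51 for *Nfia*, *Nfib*, *Nfic* and *Nfix*, with exact permutation p of 0.0667, 0.0667, 0.133 and 0.133, where 0.0667 is the smallest for 4 against 2.

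Heart and carcass of *Tdg* null embryos were then set against *Tdg* null hindbrain separately, a comparison chosen after the values had been seen. *Tdg* null heart stood at 1.68 and 1.52 for *Nfia*, 1.97 and 1.97 for *Nfib*, 1.79 and 1.74 for *Nfic* and 1.48 and 1.90 for *Nfix* in pair a and pair b. Both hearts were above all 4 hindbrains for 4 of 4 members, a pattern shown by 26.9% of all genes. The mean difference was 0.39 for *Nfia*, 0.76 for *Nfib*, 0.66 for *Nfic* and 2.32 for *Nfix*, or 1.31, 1.69, 1.58 and 4.99 times. Exact permutation p were 0.0667 for *Nfia* and *Nfib*, the smallest for 2 against 4, and 0.133 for *Nfic* and *Nfix*. In *Tdg* null carcass, *Nfia* stood at 1.58 and 1.50, *Nfib* at 1.49 and 1.59, and *Nfic* at 2.25 and 1.52, all above the 4 hindbrains. *Nfix* stood at -0.01 and -0.36, within the hindbrain range. Carcass was thus above hindbrain without overlap for 3 of 4 members, against 8.77% of all genes, by 0.32, 0.33 and 0.78 (exact permutation p = 0.0667, 0.0667 and 0.133). The single *Tdg* null liver stood at 1.73, 2.36, 2.32 and 1.49 for *Nfia*, *Nfib*, *Nfic* and *Nfix*.

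The high heart and liver values of *Nfix* coincided in part with the genes inside its span. Peaks covered 61.4% and 58.3% of *Lyl1* in the *Tdg* null hearts of pair a and pair b and 33.8% in the *Tdg* null liver, but 0% in all 4 *Tdg* null hindbrains, both *Tdg* null carcasses and all 10 WT libraries. *G430095P16Rik* was covered for 85.9% and 80.6% in the hearts and 85.9% in the liver of *Tdg* null embryos. It was covered for 12.9% in each *Tdg* null carcass, 7.69% in the *Tdg* null hindbrain of litter Q and 0% in the other 3. Both genes were thus covered along most of their length in heart, and in liver for *G430095P16Rik*. With the bases of both genes taken out, the rest of the *Nfix* window was covered for 19.2% and 9.97% in *Tdg* null heart, 5.04% in *Tdg* null liver, 5.23% and 5.81% in *Tdg* null carcass and 0.871% to 4.55% in *Tdg* null hindbrain. The heart shares therefore stayed above the others, while the liver share was near those of carcass. Relative to the share of the genome covered in each library, the rest of the window stood at 2.37 and 2.74 times in heart, 1.66 in liver, 0.970 and 0.769 in carcass and 0.325 to 1.27 in hindbrain, so that on that scale liver was between heart and the others. These shares were computed after the peaks had been seen.

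**Figure D3:**
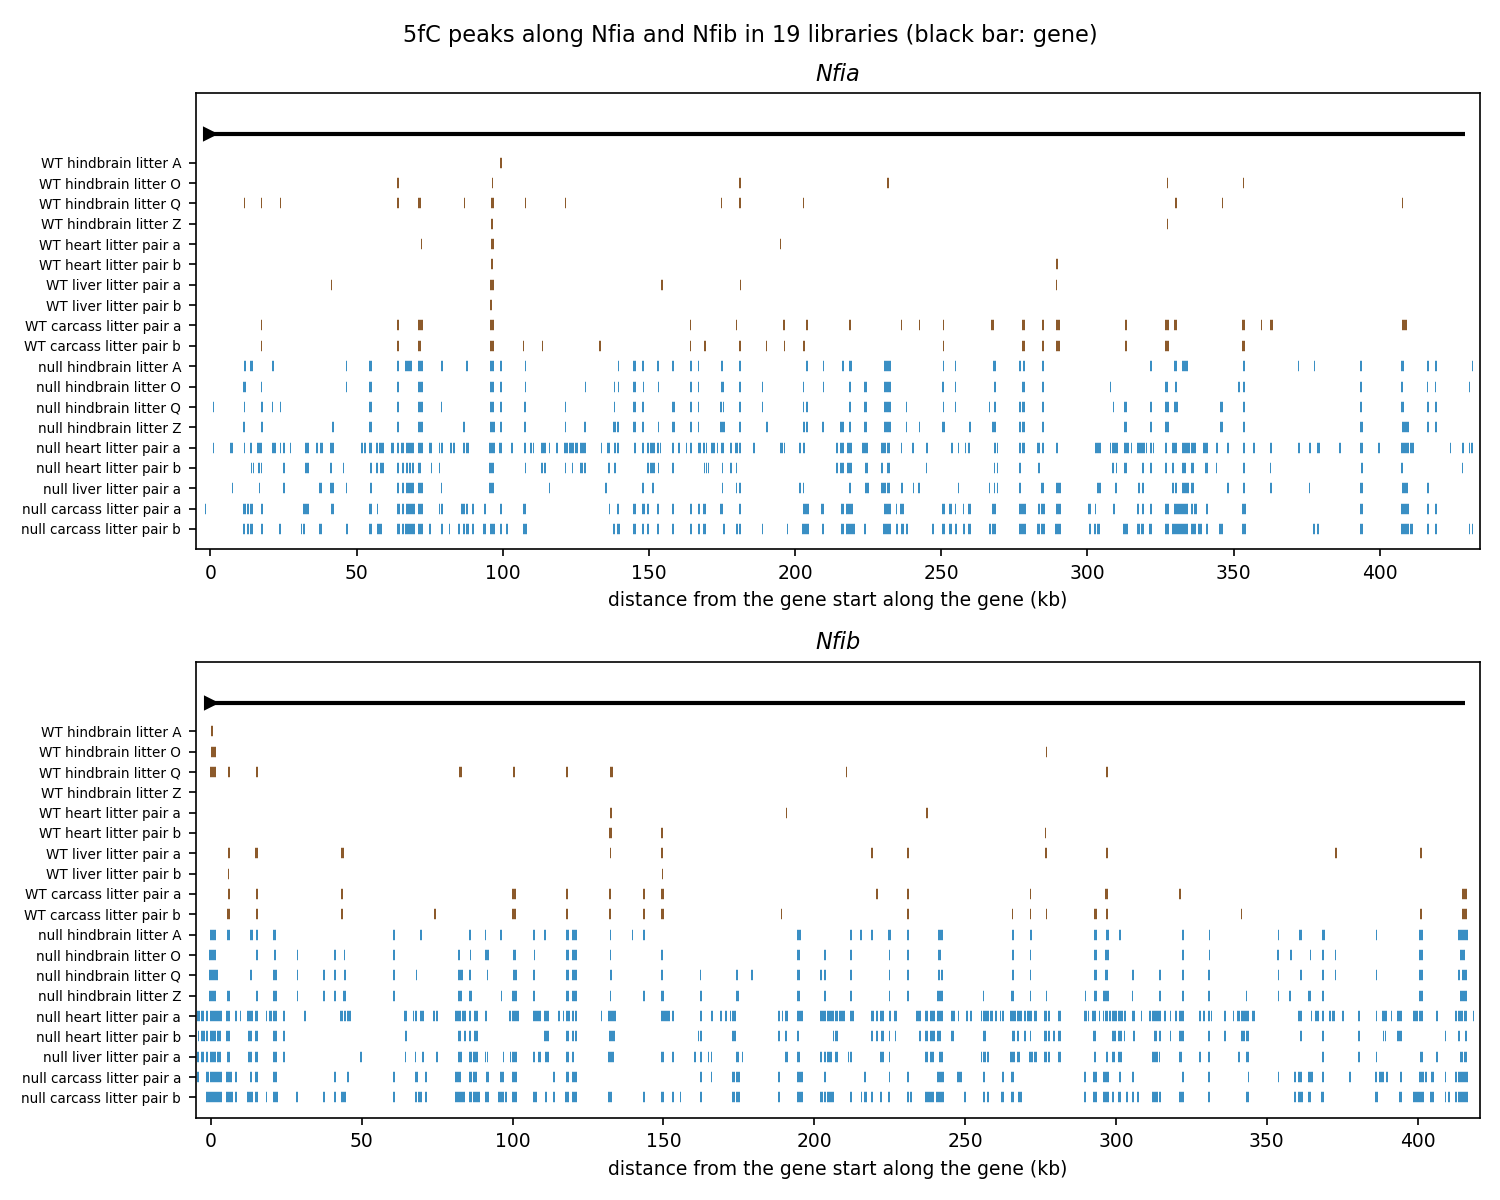
5fC peaks along *Nfia* and *Nfib*, with 1 row per library (brown WT, blue *Tdg* null) and the horizontal axis giving the distance in kb from the gene start in the direction of transcription. The black bar is the gene, with the arrowhead at its start, and peaks in *Tdg* null libraries lie along the whole length of both genes. In all, 11 *Nfia* and 14 *Nfib* regions carry a peak in all 9 *Tdg* null rows, counts without a genome-wide share beside them. The *Nfia* region 96.3 kb from the start carries a peak in 9 of 10 WT rows.

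Merged over the 19 libraries where they overlapped or touched, peaks formed 357 regions in the 4 windows, 159 in *Nfia*, 166 in *Nfib*, 11 in *Nfic* and 21 in *Nfix*. Introns held 317 of them, but introns also made up most of the bases of each window. Whether this count departs from the intron share of bases was not tested, so no enrichment in introns is read from it. Peaks of all 9 *Tdg* null libraries met in 25 regions, 11 in *Nfia* and 14 in *Nfib*, and in none of *Nfic* or *Nfix*. Peaks of a single library made up 109 regions (30.5%), 45 of them in *Nfia* and 58 in *Nfib*, beside 32.3% of regions genome-wide. WT peaks fell in 75 regions (21.0%), beside 20.1% genome-wide, and 6 regions (1.68%) had WT peaks and no *Tdg* null peak, beside 3.33%. Peaks of 5 or more WT libraries met in 5 regions, 1 in *Nfia*, 3 in *Nfib* and 1 in *Nfic*. No genome-wide share is given for regions under all 9 *Tdg* null libraries or under 5 or more WT libraries. Nothing is therefore read from these counts or from how the genes differ in them.

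The *Nfia* region with the most libraries was chr4:97534801-97536700, which held 44 CpG in 1900 bp. It was missing from the *Tdg* null carcass of pair a and the WT hindbrain of litter A alone, so that it was seen in 17 of 19 libraries and in every tissue of both genotypes. In *Nfib*, chr4:82217301-82219900 was seen in 14 libraries. The region chr4:82348101-82352100, which spans the start of *Nfib* and was picked after its values were seen, lay under peaks of 9 *Tdg* null libraries and 3 WT libraries, and these were the WT hindbrains of litters A, O and Q. For these hindbrains of litters A and O the start region held 1 of 1 and 1 of 2 *Nfib* peaks, and no WT heart, liver or carcass had a peak there. It was the 1 region of 357 (0.280%) under 3 or 4 WT hindbrains and no other WT library, beside 0.0718% of regions genome-wide. This pattern was looked for after the region had been picked, so nothing is read from its rarity, and it was not tested. The neighbouring region chr4:82344401-82346700, also picked afterwards, lay under peaks of 5 WT libraries, the hindbrain of litter Q, both carcasses and both livers. In *Nfic*, 6 of the 7 WT peaks fell in chr10:80873201-80877300, in WT hindbrain of litters O and Q, both hearts and both carcasses. In *Nfix*, chr8:87245301-87250200 was seen in 7 *Tdg* null libraries and missing from the *Tdg* null hindbrains of litters O and Z, both of which were low for the whole gene.

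**Figure D4:**
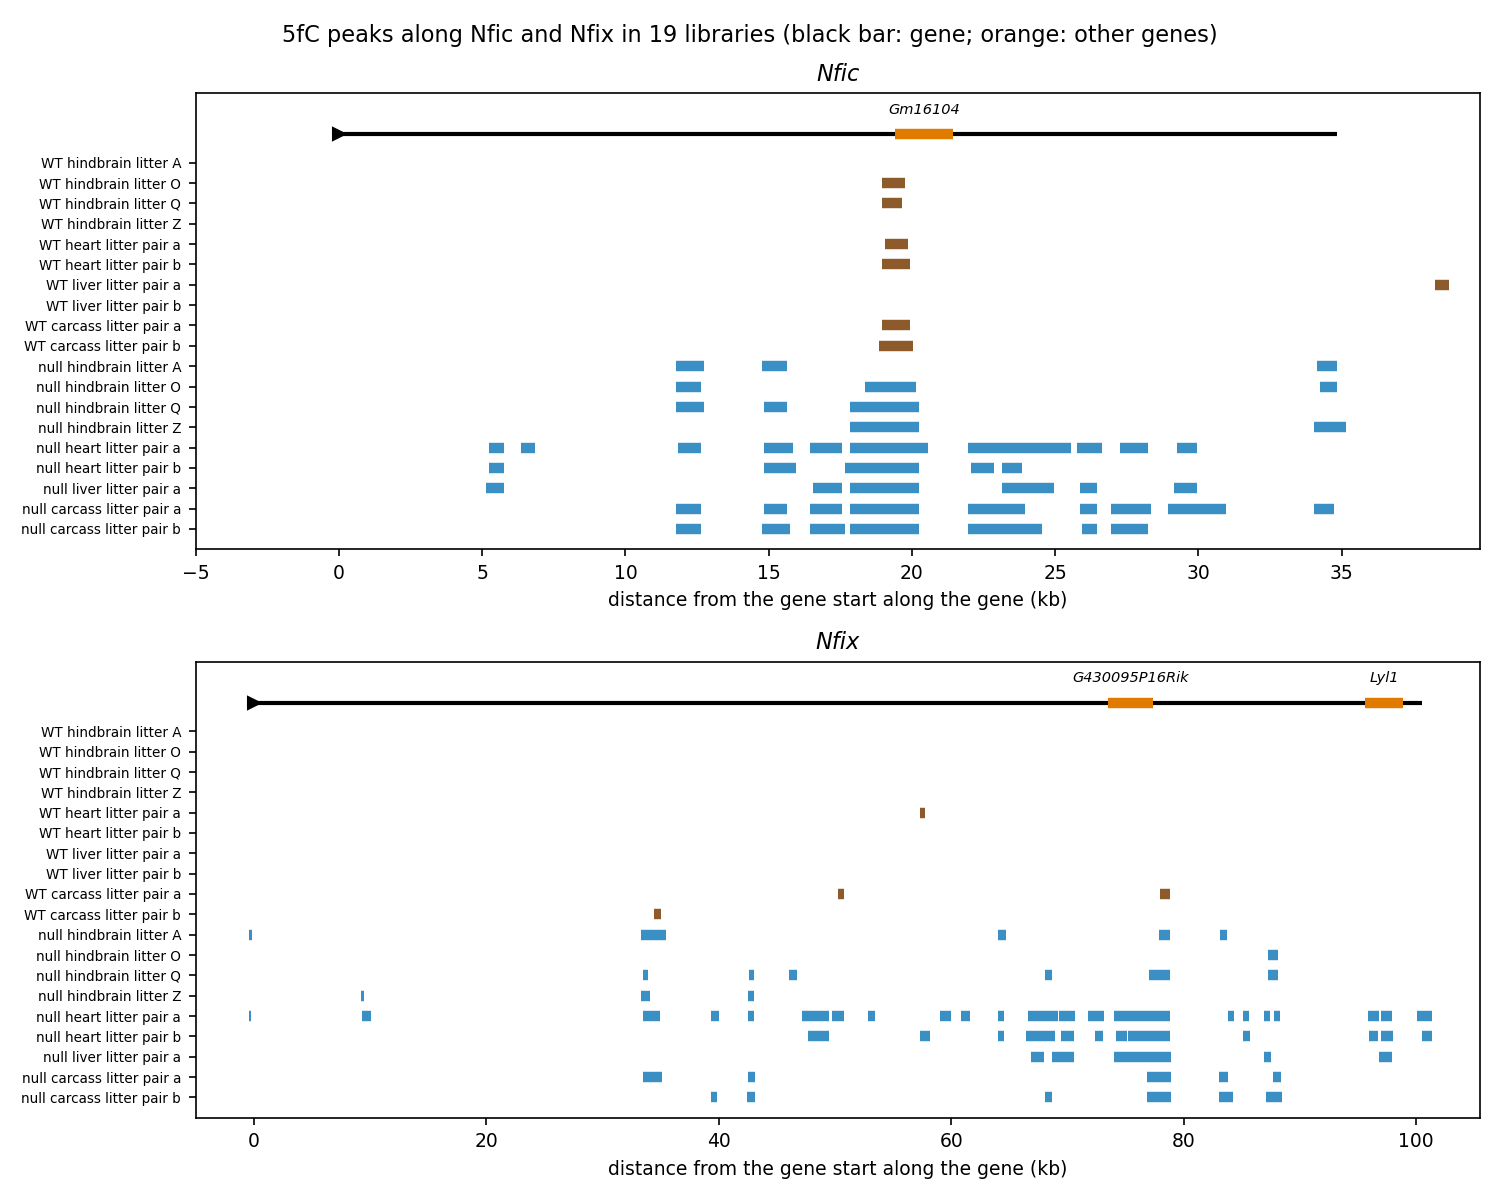
5fC peaks along *Nfic* and *Nfix*, drawn as for the longer genes, with *Gm16104*, *G430095P16Rik* and *Lyl1* in orange on the gene bar. The *Nfic* region about 18.5 kb from the start recurs in 8 *Tdg* null and 6 WT rows, and peaks over *Lyl1* appear in the *Tdg* null heart and liver rows and no other.

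No region lay under peaks of all 4 *Tdg* null hindbrains and no other *Tdg* null library, whereas 6 regions lay under peaks of the 5 others and no hindbrain, 3 in *Nfia*, 2 in *Nfib* and 1 in *Nfic*. Genome-wide these patterns held for 0.656% and 0.986% of 419123 regions, against 0 and 6 (1.68%) of the 357 regions here. More broadly, 220 regions (61.6%) had no *Tdg* null hindbrain peak, 95 in *Nfia*, 107 in *Nfib*, 7 in *Nfic* and 11 in *Nfix*, beside 54.7% genome-wide, and 13 (3.64%) had no peak of the other *Tdg* null libraries, beside 50255 of the 419123 genome-wide. The other libraries are 5 against 4 and covered 3.03% to 8.09% of the genome against 2.68% to 3.67%, and the part of this in the counts was not tested. The longest in each gene were chr4:97774701-97776800 in an *Nfia* intron, chr4:82262501-82264900 in an *Nfib* intron and chr10:80868201-80871800 over an exon and intron of *Nfic*. None of these 3 had a WT peak. The best covered 300 bases of each are printed to set them beside the stretches seen in most libraries, on the plus strand with CpG in capitals, at chr4:97775001-97775300, chr4:82263301-82263600 and chr10:80869901-80870200.
Nfia, no hindbrain: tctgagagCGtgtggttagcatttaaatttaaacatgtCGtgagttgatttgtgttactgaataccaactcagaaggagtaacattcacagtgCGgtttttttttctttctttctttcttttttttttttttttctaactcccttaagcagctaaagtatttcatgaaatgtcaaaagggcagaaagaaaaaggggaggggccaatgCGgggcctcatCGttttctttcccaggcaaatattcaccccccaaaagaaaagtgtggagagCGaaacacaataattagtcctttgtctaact
Nfib, no hindbrain: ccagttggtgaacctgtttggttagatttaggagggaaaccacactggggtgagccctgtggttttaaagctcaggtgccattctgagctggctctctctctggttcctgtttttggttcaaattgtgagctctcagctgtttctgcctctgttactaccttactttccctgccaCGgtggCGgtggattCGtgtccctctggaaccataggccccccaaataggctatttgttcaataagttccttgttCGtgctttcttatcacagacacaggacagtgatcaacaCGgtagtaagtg
Nfic, no hindbrain: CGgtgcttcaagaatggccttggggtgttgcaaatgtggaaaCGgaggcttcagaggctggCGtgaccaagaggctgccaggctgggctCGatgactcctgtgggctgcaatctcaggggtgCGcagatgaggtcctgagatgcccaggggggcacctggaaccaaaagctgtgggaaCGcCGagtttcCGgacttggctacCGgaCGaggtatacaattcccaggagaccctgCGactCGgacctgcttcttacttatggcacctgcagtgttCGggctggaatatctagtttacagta
They held 6, 5 and 13 CpG. The *Nfia* and *Nfib* stretches thus had fewer CpG than those of the same genes seen in most libraries (21 and 11), and the *Nfic* stretch had more (7). The *Nfia*, *Nfib* and *Nfic* stretches lay in a CGI for 0%, 50.7% and 64.7% of their bases, beside 100%, 77.7% and 33.7% of those seen in most libraries.

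Within the windows the recurrence of *Tdg* null peaks followed CpG content in *Nfia* and *Nfib* and not in *Nfic* and *Nfix*. The windows were divided into cells of 100 bases, and cells were sorted by the number of *Tdg* null libraries with a peak. In *Nfia* the mean was 0.71 CpG per 100 bases in the 2810 cells with none, 1.04 in cells with 1 to 4, 1.50 with 5 to 8 and 1.95 in the 56 cells with all 9. In *Nfib* the same means were 0.85, 1.13, 1.53 and 2.04. In *Nfic* they were 2.44, 2.31 and 2.35, and in *Nfix* 1.93, 1.92 and 1.97, with no cell under all 9. Cells under a peak of any WT library held a mean of 1.69 in *Nfia*, 1.72 in *Nfib* and 2.0 in *Nfic*. In *Nfix* that mean was 2.79, over 24 cells, and so above its *Tdg* null classes. Neighbouring cells share peaks, so these means are a description without a test. The windows of *Nfic* and *Nfix* were richer in CpG throughout, at a mean GC content of 57.3% and 53.0% against 41.4% and 41.8% in *Nfia* and *Nfib*.

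**Figure D5:**
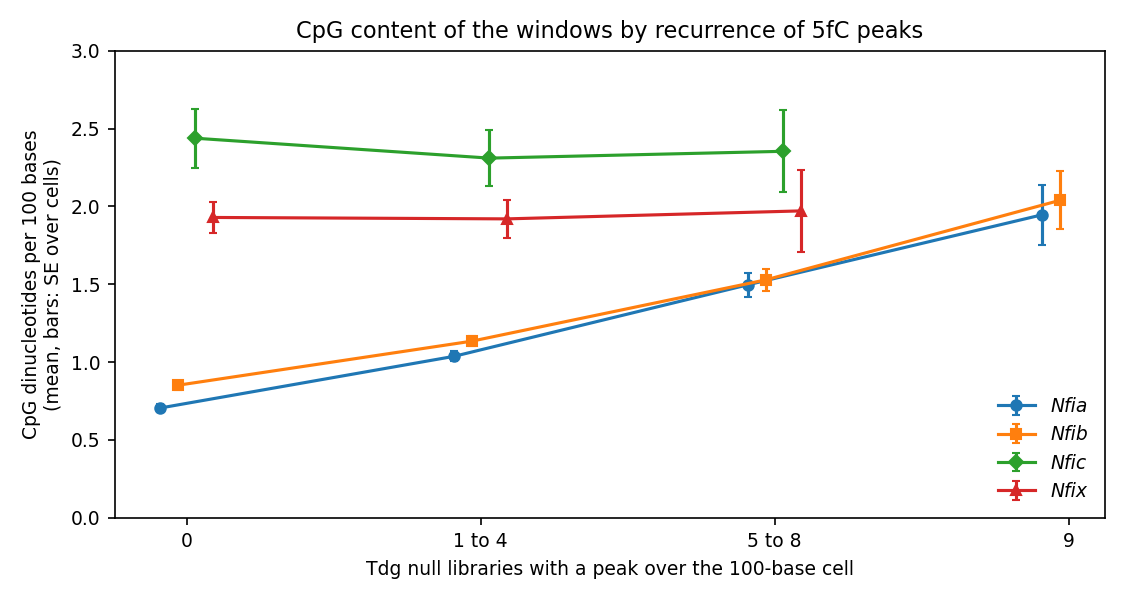
Mean CpG dinucleotides per 100 bases of the gene windows, by the number of *Tdg* null libraries with a 5fC peak over the 100-base cell. Lines join the classes of 1 gene and bars are the SE over cells, which are not independent; the means climb from 0.71 to 1.95 in *Nfia* and from 0.85 to 2.04 in *Nfib* and stay near 2.4 in *Nfic* and 1.9 in *Nfix*.

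CGIs at transcript starts were less covered than the other CGIs of the same gene. In *Nfia* the start CGIs (3.10 kb in all) were covered for 4.89% ± 3.75 (SD, n = 9) in *Tdg* null and 0% in WT libraries. The other *Nfia* CGIs (6.42 kb) were covered for 37.4% ± 7.59 (n = 9) in *Tdg* null and 12.1% ± 10.2 (n = 10) in WT libraries. In *Nfib* the values were 10.7% ± 4.77 at starts and 26.1% ± 8.66 elsewhere in *Tdg* null libraries. In *Nfix* they were 1.38% ± 2.81 and 7.52% ± 6.56. *Nfic* was an exception by tissue, since its start CGIs were at 0% in all 4 *Tdg* null hindbrains and at 24.3% ± 6.47 (n = 5) in the other *Tdg* null libraries, near the 23.7% ± 9.92 of its other CGIs there. The other *Nfic* CGIs were also low in *Tdg* null hindbrain, at 4.55% ± 3.04 (n = 4), so this contrast of tissues was not confined to start CGIs. Upstream of *Nfib*, the 5 kb before the gene start were likewise covered for 8.42% ± 1.0 (n = 4) in *Tdg* null hindbrain and 44.9% ± 15.2 (n = 5) in the other *Tdg* null libraries. The same 5 kb of the other members held little, with means of 0% and 1.60% in *Nfia*, 0% and 0% in *Nfic* and 1.50% and 0.8% in *Nfix*, each *Tdg* null hindbrain first. These contrasts of single features were noticed in the data and were not tested.

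Of the 152 WT peaks in the 4 windows for which the *Tdg* null litter mate gave a usable library of that tissue, 111 (73.0%) overlapped a peak of that library, beside 60.5% of WT peaks genome-wide. The share was 84.6% in hindbrain (33 of 39), 73.3% in heart (11 of 15), 64.7% in liver (11 of 17) and 69.1% in carcass (56 of 81). The genome-wide shares in these tissues were 77.9%, 36.3%, 30.1% and 63.3%, so the NFI peaks were above the genome in each tissue, by most in heart and liver. Heart and liver also had the fewest WT peaks here. Peaks of all 9 *Tdg* null libraries covered *Nfia*, *Nfib* and *Nfic* more than the genome, and those of 5 did so for *Nfix*. The part of this higher coverage in the shares was not tested. Peaks of 1 library are not independent replicates, and no test was made.

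Beside the *Mef2* genes, another family of transcription factor genes, the mean log2 coverage of the 4 NFI genes in *Tdg* null embryos was 1.0, and that of *Mef2a* to *Mef2d* was -0.31. The NFI mean exceeded the *Mef2* mean by 1.31 ± 0.48 (SD), in 6 of 6 embryos (exact sign-flip permutation p = 0.03125, adjusted p = 0.0625 over 4 comparisons). The difference was 0.56 with peak midpoints and 2.17 with peaks of at least 600 bp. No difference is read in WT embryos, since *Mef2a*, *Mef2b* and *Mef2d*, like *Nfix*, were at 0% in WT hindbrain and the added bases set much of those log2 values. The 2 comparisons with a further family did not pass an unadjusted p under 0.05. This sets the NFI genes against few families, and nothing particular to them is read from it. *Mef2c* had the highest level of its family, at 0.41, above *Nfix* and below the other NFI genes, and *Mef2a* the lowest, at -1.49.

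Of 22 genes listed as regulators, partners or targets of NFI factors, 17 were higher in *Tdg* null hindbrain at an unadjusted exact permutation p of 0.0286, against 55.0% of all genes. The median rise of the 22 was 5.85 percentage points beside 2.47 for all genes. The list was chosen with earlier results of these data known, so nothing about NFI partners or targets is read from these differences. None of the 17 passed after adjustment over all genes (adjusted exact permutation p = 0.0519). With litter mates paired, the exact sign-flip test cannot give a p below 0.125 for 4 pairs, so none of the 17 calls stands in that test. The 17 were 4 of 6 regulators and partners, 7 of 8 glial genes, 4 of 5 granule neuron genes and 2 of 3 fetal muscle genes. *Hes5*, a Notch effector in neural progenitors, was covered for 26.2% ± 6.73 (SD, n = 4) in *Tdg* null hindbrain and 0% in WT hindbrain. *Notch1*, the receptor gene upstream of it, was covered for 13.1% ± 1.53 (n = 4) against 0.727%. *Zcchc24*, listed with the glial genes, was covered for 12.3% ± 3.50 (n = 4) against 0.632%. The 5 genes that did not pass included *Pou3f2*, a neural POU factor gene, and *Gabra6*, a subunit of the GABA-A receptor, both without a peak in any hindbrain library of either genotype.

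Over the 9 *Tdg* null libraries the members varied together to different degrees. Pearson's r of log2 coverage was 0.90 for *Nfia* with *Nfib*, 0.83 for *Nfia* with *Nfic* and 0.48 for *Nfic* with *Nfix*, the lowest of the 6 pairs. Of 16199 other genes with at least 1% of the window covered, the pattern most like the mean of the 4 members was that of *Myo5b* (r = 0.986), and among the next were *Tspan32* (0.975), *Cux1* (0.973) and *Smad6* (0.969). *Nfix* had the widest range over these libraries, -1.61 to 1.90, and *Nfic* the next, 0.66 to 2.32, so the mean of the 4 members leans on *Nfix*. These correlations are descriptions over libraries that share embryos and differ by tissue.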

How the data were processed

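DNA from E11.5 WT and *Tdg* null tissues was pulled down with a biotinylated aldehyde-reactive probe and sequenced. The authors used Trim Galore for read trimming, Bowtie2 with its defaults for alignment to NCBIM37 (mm9), and MACS within SeqMonk for peak calling per pull-down, with 200 bp fragments and a cutoff of p = 1e-05. The use of an input and of duplicate removal is not given in the sources used here. The deposited values are peak starts and ends, read as 1-based on a grid of 100 bp, with no counts, heights or scores, so depth is unknown and the number of libraries limits the precision. All 20 libraries were read, and 19 were used. No 2 libraries held identical peaks.

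Gene bodies came from GENCODE vM1 on NCBIM37, and 278 rows of symbols used more than once were left out, which left 22089 protein-coding genes. Covered share is the percent of a window (gene body plus 5 kb on each side) under peaks on 21 chromosomes. Log2 coverage over genome is the log2 of covered over expected bases, each plus a pseudocount of 100 bases. Tests were two-sided exact permutation tests over libraries, embryos or litters, run on all genes with Benjamini-Hochberg adjustment, and the functions were tested on simulated data. The smallest p was 0.0286 for 4 against 4 and 0.03125 for 6 litters. Pairing follows the litter in the labels. Deviations of litter mates from their group means in hindbrain correlated at 0.0578 (litter A), 0.02 (O), -0.0239 (Q) and -0.0273 (Z). Members were given in full. Of the partner list, the 3 genes most covered in *Tdg* null hindbrain were named, of the genes most like the family 5 (the result for 1 of them, and a planned comparison with a further gene family, are not reported here), and of regions the one under most libraries in each gene and the longest outside hindbrain, with 2 *Nfib* regions near the start picked after their values were seen. The members and lists were chosen with earlier results of these data known. Python 3.11.15 with numpy 2.4.6, pandas 2.3.3 and matplotlib 3.10.9 was used.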

Additional observations from a re-analysis of the deposited data

Results flagged for a closer look

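In *Tdg* null hindbrain, the log2 coverage over genome of *Nfia* in litter Z, 1.32, stood apart from the other 3 hindbrains, which lay between 1.17 and 1.19. The gap to its nearest neighbour took up 0.898 of the range of the group, more than Dixon's 95% value for 4 samples allows. Of 16 groups of 4 libraries examined in this way this was the single one, and chance gives about 1 in 20. The *Tdg* null hindbrain of litter Z was also the highest of the 4 for the covered share of *Nfia* and *Nfib*, and not for *Nfic* or *Nfix*. Its peaks also covered the largest share of the genome among the 4, 3.67%.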

How the results depend on the processing

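The share of each window covered rose from WT to *Tdg* null under every alternative run, in hindbrain and over litters. With litter mates as a replicate block, the hindbrain differences of 7.16, 7.25, 6.75 and 2.69 points (*Nfia*, *Nfib*, *Nfic*, *Nfix*) had an exact p of 0.125, the smallest for 4 pairs. With 1 hindbrain left out the differences ranged from 6.72 to 7.74, 6.86 to 7.75, 6.15 to 7.34 and 2.11 to 3.32 points, and the unadjusted call was lost for *Nfix* without any 1 of the WT hindbrains (exact p = 0.0857). With 1 litter left out the means over litters ranged from 8.55 to 10.6, 9.15 to 11.8, 8.39 to 11.7 and 4.07 to 6.25 points. There, and for the pairs with *Nfix* (1.20 to 1.62 for *Nfia*, 1.30 to 1.70 for *Nfib*, 1.19 to 1.71 for *Nfic*) and the NFI to *Mef2* difference (1.18 to 1.47 in *Tdg* null, 1.33 to 1.68 in WT), the 5 litters left cannot give an exact p below 0.0625. The *Mef2* difference was 0.56 with peak midpoints and 2.17 with peaks of at least 600 bp in *Tdg* null embryos (1.31 as reported). In WT embryos, where most *Mef2* genes had no hindbrain peak and no difference is read, it fell from 1.48 to 0.63 with a pseudocount of 1000 bases. The number of partner and target genes called ranged from 14 to 18 of 22 with 1 hindbrain left out.

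Log2 coverage depended more on the settings. The *Tdg* null minus WT hindbrain difference of *Nfia* (-0.54) became 0.46 with peaks of at least 600 bp, 0.20 with a pseudocount of 1000 bases, -0.76 with peak midpoints and -0.75 with expectation from protein-coding windows, both at an exact p of 0.0286. That of *Nfib* (0.35) became -0.016 with peaks of at least 600 bp and -0.38 without the WT hindbrain of litter Z. That of *Nfic* (0.30) became -0.28 with midpoints, -0.0498 without the WT hindbrain of litter A and -0.0437 without that of litter Z. That of *Nfix* (0.66), with all WT hindbrains at 0, is set by the pseudocount and became -0.17 with the larger one. With 1 hindbrain left out these 4 ranged from -0.74 to -0.38 (*Nfia*, past the threshold without the WT hindbrain of litter A), -0.38 to 0.67, -0.05 to 0.80 and 0.22 to 0.99. Hindbrain minus other tissues for *Nfia* (-0.06) became 0.0876 with midpoints, 0.0028 with the coding-window expectation, 0.0847 with the *Tdg* null liver of pair b included, 0.0393 without the WT embryo of litter A and 5.8e-05 without that of pair b. It became -0.60 for *Nfia* with peaks of at least 600 bp (exact p = 0.249), for *Nfib* -0.36 (0.622) and for *Nfic* -0.46 (0.436). It passed an unadjusted 0.05 for *Nfix* at -1.16 with the gene body alone (exact p = 0.0444), and for *Nfib* at -0.59 (0.0489) and *Nfic* at -0.50 (0.0311) with the larger pseudocount. With that pseudocount *Nfix* became -0.69 (exact p = 0.0756). With 1 embryo left out, hindbrain minus other tissues ranged from -0.14 to 0.04, -0.92 to -0.39, -0.98 to -0.55 and -1.31 to -0.93. It passed for *Nfib* without the WT embryo of litter Z, for *Nfic* without that of litter O and for *Nfix* without that of litter A or Z. The *Nfix* values over both genotypes are not read, since WT hindbrain held no peak there. Hindbrain against heart alone and carcass alone in *Tdg* null embryos, chosen after seeing the data, kept its sign for all 4 genes.

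Among the pairs, *Nfia* minus *Nfic* (-0.03) became 0.0080 with 10 kb flanks, 0.60 with midpoints (exact p = 0.03125), 0.24 with the larger pseudocount and 0.0053, 0.0021 and 0.0573 without litters O, Q and pair a. *Nfia* minus *Nfib* (-0.09) became 0.0081 with midpoints and ranged from -0.13 to -0.05 with 1 litter left out. *Nfib* minus *Nfic* (0.06) became -0.12 with peaks of at least 600 bp, -0.27 with the gene body alone, -0.0133 without litter A, and 0.59 with midpoints and 0.33 with the larger pseudocount, both at an exact p of 0.03125. *Nfia* minus *Nfic* ranged from -0.14 to 0.06 and *Nfib* minus *Nfic* from -0.01 to 0.11 with 1 litter left out. The cause of these changes was not tested. Peak positions without heights or reads, WT libraries with few peaks and 1 *Tdg* null liver limit all values.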
